A study of Mus musculus with 12 samples.

Results

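The 8 protein-coding genes that flank Tgif1 on mouse chromosome 17 were described in whole embryos labelled as lacking Tgif1 and Tgif2. The genes were Dlgap1 on one side of Tgif1 and, in order away from it on the other side, Myl12b, Myl12a, Myom1, Lpin2, Emilin2, Smchd1 and Ndc80. They were chosen by symbol from the 23284 genes of the count table, for their place beside Tgif1 and partly because Dlgap1 differed strongly between the groups. The level of Dlgap1 is therefore given as a description with no test. The other 7 were listed for position. RefSeq's gene order for GRCm38.p6 places 27 entries from Dlgap1 to Ndc80, of which 9 are protein-coding, the 8 genes described here and Tgif1. Only 1 further entry of that stretch was in the count table, a transcribed pseudogene with too few counts to be tested. All 8 genes passed the filter on low counts.

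The series sequenced polyadenylated RNA from single whole embryos, stage-matched at 9.0 days after fertilization and about 9 to 10 somites, on a mixed C57BL/6 x 129Sv background. A group of 8 embryos is labelled Tgif1;Tgif2 null and carries CDKO in the sample titles; the series text describes conditional double mutants that lack both alleles of each gene. The comparison group is 4 wild-type embryos (WT). No source used here names the Cre driver, the deleted part of either gene, the litters or a library batch. Libraries held 16802367 to 21346245 counts in the CDKO-labelled group and 17296017 to 20080786 counts in WT. Levels are counts per 1000000 counts (CPM) after scaling of library sizes.

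Tgif1 and Tgif2 encode related homeodomain repressors that limit transcription in the TGF-beta and Nodal pathways. The genes beside Tgif1 share its stretch of chromosome but not its role. Dlgap1 encodes a scaffold of the postsynaptic density, Myl12a and Myl12b encode regulatory light chains of non-muscle myosin II, Myom1 encodes the sarcomere protein myomesin and Lpin2 a phosphatidate phosphatase. Emilin2 encodes an extracellular matrix glycoprotein, Smchd1 a chromatin protein needed for silencing on the inactive X chromosome and at some imprinted genes, and Ndc80 a kinetochore protein that binds microtubules.

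RefSeq promoter windows of GRCm38.p6, from 250 bases before to 50 bases after a gene start, are shown for the 3 genes at the Tgif1 edge of the set, both starts of Dlgap1 and the starts of the light chain pair, and for the windows of Myom1 and Emilin2 that hold the letters TGTCA, the core sequence that Tgif homeodomains bind. Capitals mark TGTCA or its reverse complement TGACA, and windows with no capitals hold neither. Each runs 5′ to 3′ on the strand of its gene.
Dlgap1, first start, chr17:69968823-69969122, plus strand: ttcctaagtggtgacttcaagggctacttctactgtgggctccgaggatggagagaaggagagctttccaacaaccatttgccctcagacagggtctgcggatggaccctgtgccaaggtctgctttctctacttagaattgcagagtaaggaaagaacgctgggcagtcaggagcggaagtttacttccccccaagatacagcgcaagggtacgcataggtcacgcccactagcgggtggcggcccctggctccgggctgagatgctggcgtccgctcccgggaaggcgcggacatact
Dlgap1, second start, chr17:70561497-70561796, plus strand: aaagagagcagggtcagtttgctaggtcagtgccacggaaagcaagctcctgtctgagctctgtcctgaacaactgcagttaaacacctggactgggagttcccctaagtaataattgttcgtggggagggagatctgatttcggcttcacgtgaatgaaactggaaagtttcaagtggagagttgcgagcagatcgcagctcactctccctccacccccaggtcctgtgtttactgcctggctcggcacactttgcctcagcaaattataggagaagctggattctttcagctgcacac
Myl12b, chr17:70990467-70990766, minus strand: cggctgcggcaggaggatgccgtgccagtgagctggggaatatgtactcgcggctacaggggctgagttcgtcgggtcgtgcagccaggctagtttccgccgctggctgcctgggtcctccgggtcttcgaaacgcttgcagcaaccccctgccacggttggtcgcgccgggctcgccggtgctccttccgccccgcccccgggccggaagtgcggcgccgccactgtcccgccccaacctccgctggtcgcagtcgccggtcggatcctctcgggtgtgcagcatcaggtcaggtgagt
Myl12a, chr17:71002484-71002783, minus strand: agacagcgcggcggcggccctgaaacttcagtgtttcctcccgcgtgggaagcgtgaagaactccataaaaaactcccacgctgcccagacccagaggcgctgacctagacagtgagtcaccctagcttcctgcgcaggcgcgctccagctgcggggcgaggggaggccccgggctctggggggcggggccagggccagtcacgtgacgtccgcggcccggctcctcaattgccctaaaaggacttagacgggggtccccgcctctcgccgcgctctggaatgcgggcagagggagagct
Myom1, chr17:71019307-71019606, plus strand: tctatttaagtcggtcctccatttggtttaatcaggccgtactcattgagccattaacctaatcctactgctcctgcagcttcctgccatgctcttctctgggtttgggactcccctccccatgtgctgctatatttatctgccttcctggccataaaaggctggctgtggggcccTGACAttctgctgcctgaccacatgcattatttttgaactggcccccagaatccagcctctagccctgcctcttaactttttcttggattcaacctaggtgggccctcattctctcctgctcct
Emilin2, chr17:71311507-71311806, minus strand: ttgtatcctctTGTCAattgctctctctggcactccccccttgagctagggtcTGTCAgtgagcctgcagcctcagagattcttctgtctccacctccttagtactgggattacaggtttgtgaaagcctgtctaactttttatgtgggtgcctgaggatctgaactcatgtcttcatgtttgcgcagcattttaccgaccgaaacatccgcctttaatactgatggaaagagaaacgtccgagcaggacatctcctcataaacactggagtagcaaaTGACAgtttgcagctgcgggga

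TGTCA, searched on both strands, was in 2 of the 12 windows of the 8 genes and in 45.4% of the 32851 windows of the same length in the table. The longer form CTGTCAA, also on both strands and containing TGTCA, was in 0 of the 12 and in 3.55% of all windows. These counts describe letters in these windows, and which of the starts was used in the embryos was not measured. Dlgap1 lies on the plus strand and Tgif1 on the minus strand, so their 3′ ends face each other. Whether counting used strand is not stated in the sources, so reads of a gene and of RNA from its other strand cannot be told apart.

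The targeted gene was checked first. Tgif1 stood at 5.5 to 6.87 CPM (median 6.02) in the CDKO-labelled embryos, against 64.2, 61.3, 59.3 and 58.5 CPM in WT. It averaged 6.19 ± 0.528 CPM (SD, n = 8) in CDKO-labelled embryos and 60.8 ± 2.52 CPM (SD, n = 4) in WT, 9.8-fold lower, with a log2 fold change of -3.29 (SE 0.07). Tgif2 stood at 84.4 to 116 CPM in CDKO-labelled embryos and 85.7 to 88.5 CPM in WT and did not differ by the test (log2 fold change 0.16, SE 0.08, edgeR adjusted p = 0.0958). Its genotype therefore rests on the label. Transcripts of Tgif2 share near-identical stretches with 2 copies elsewhere and with 1 overlapping gene, so its count is uncertain. In whole embryos, fewer cells of a type and less RNA per cell cannot be told apart in any value given here.

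Dlgap1 was near the bottom of the tested genes in WT and well measured in every CDKO-labelled embryo. Its counts were 254 to 356 in the 8 CDKO-labelled embryos, against 16, 21, 11 and 18 in the 4 WT embryos. In CPM it stood at 14.1 to 16.9 (median 15.3) in CDKO-labelled embryos, against 0.926, 1.06, 0.633 and 0.897 in WT. The groups lay far apart and did not overlap. The mean was 15.6 ± 1.12 CPM (SD, n = 8) in CDKO-labelled embryos and 0.88 ± 0.18 CPM (SD, n = 4) in WT, a log2 fold change of 4.13 (SE 0.13), or 17.5-fold higher, the 4th highest of 14412 genes tested. Leaving out 1 embryo at a time gave log2 fold changes of 4.0 to 4.23.

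The coefficient of variation of Dlgap1 among the CDKO-labelled embryos was 7.18%, within the range of the 8 genes, from 5.61% for Myl12a and 5.73% for Ndc80 to 19.8% for Myom1. Divided by the length of merged exons, Dlgap1 had 0.871 ± 0.0626 CPM per kb (SD, n = 8) in CDKO-labelled embryos and 0.0492 ± 0.01 CPM per kb (SD, n = 4) in WT. By that scale 18.0% of 14268 tested genes with a known length lay below it in CDKO-labelled embryos, and 0.378% in WT. Both levels were in the lower part of the range of tested genes.

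**Figure D1:**
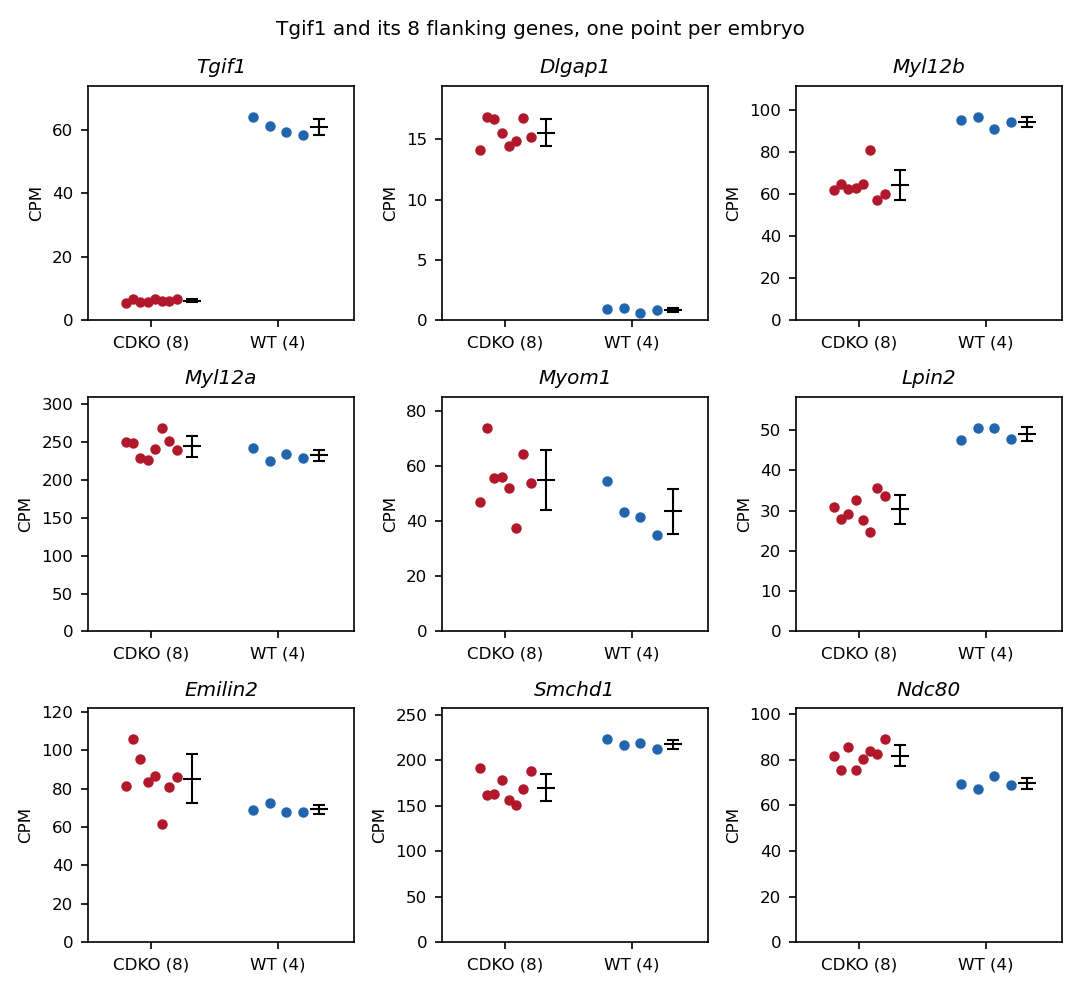
CPM (y axis, from 0) of Tgif1 and its 8 flanking genes in each of the 8 CDKO-labelled and 4 WT embryos, with the mean and SD beside the points. Dlgap1 lies at 14.1 to 16.9 CPM in CDKO-labelled embryos and at 0.633 to 1.06 CPM in WT, while the other 7 flanking genes differ by less than 2-fold between group means.

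Genes that act with Dlgap1 moved in both directions. Dlgap proteins link membrane-associated guanylate kinases of the Dlg family to Shank and Homer scaffolds at synapses. Among 14 tested genes of this kind, 3 rose and 3 fell by edgeR's quasi-likelihood test, with Benjamini-Hochberg adjustment over all genes, while 8 stayed short of the threshold. By limma, which called 8639 of all genes against 7423 by edgeR, 3 rose and 5 fell. The list had a median log2 fold change of -0.03, and 51.5% of all 14412 genes changed, with a median of 0.01. Its relative Dlgap3 rose to 11.7 ± 1.44 CPM (SD, n = 8) in CDKO-labelled embryos, against 6.1 ± 0.372 CPM (SD, n = 4) in WT. Dlgap4, which lies near Tgif2, rose by a log2 fold change of 0.47 (SE 0.05). The scaffold genes Shank2 (-0.66, SE 0.11) and Homer1 (-0.51, SE 0.07) fell.

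Markers of neurons, the cells in which Dlgap1 is best known, held none that rose. Among the 11 tested, 0 rose and 2 fell, and 9 did not pass, where 26.6% of all genes rose and 24.9% fell. Over all genes 3840 rose and 3583 fell by edgeR, 3846 and 3707 by DESeq2, and 4333 and 4306 by limma. By DESeq2 0 of these markers rose and 2 fell, and by limma 0 rose and 4 fell. The 2 that fell were the intermediate filament gene Ina, at 6.23 ± 0.819 CPM in CDKO-labelled embryos (SD, n = 8) and 12.9 ± 2.17 CPM in WT (SD, n = 4), and the tubulin gene Tubb3 (log2 fold change -0.44, SE 0.15, edgeR adjusted p = 0.0278). Without WT embryo 1, without WT embryo 4, or without CDKO-labelled embryo 2 and WT embryo 1 together, 1 fell, and without CDKO-labelled embryo 7 or 8, 3 fell. The 2 genes next in p, Elavl4 (-0.63, SE 0.32) and Gap43 (0.18, SE 0.11), did not pass. Elavl4 was low and variable, at 2.96 ± 1.62 CPM in CDKO-labelled embryos (SD, n = 8). The part of neurons in the difference of Dlgap1 between the groups was not tested. No marker of the list in the table was at 0, and its summed level was 112 to 141 CPM in CDKO-labelled embryos and 124 to 155 CPM in WT.

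Of the 7 genes on the other side of Tgif1, 5 differed between the groups by the test, 2 higher and 3 lower, where 51.5% of all genes tested differed (26.6% higher and 24.9% lower). In 4 of the 7 the groups did not overlap, where this held for 34.7% of all genes. Both shares are of a small set that was listed with earlier results of these embryos known, and nothing is read from them. With 1 CDKO-labelled embryo left out at a time, from embryo 1 to 8, the share of all genes that differed was 51.6%, 50.5%, 49.4%, 50.2%, 48.9%, 52.3%, 52.0% and 51.3%, and 5 or 6 of the 7 genes did. Against a change of at least 1.2-fold 2 of the 7 passed, beside 22.4% of all genes, and after correction for GC content and length 4 of the 7 did, beside 52.6%. The 7 log2 fold changes lay between -0.69 and 0.34. Their median size, without sign, was 0.34, against 0.25 over all genes tested.

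Myl12b, the flanking gene next to Tgif1 on that side, fell while its neighbour Myl12a did not pass the test. Both encode myosin regulatory light chains, whose phosphorylation switches non-muscle myosin II on in contractile and dividing cells. Myl12b stood at 57.1 to 81.0 CPM (median 62.5) in CDKO-labelled embryos, against 90.6 to 96.7 CPM (median 94.6) in the 4 WT embryos. All 8 CDKO-labelled embryos lay below every WT embryo, and CDKO-labelled embryo 6, at 81.0 CPM, stood above the other CDKO-labelled embryos. The means were 64.3 ± 7.17 CPM (SD, n = 8) and, in WT, 94.1 ± 2.57 CPM (SD, n = 4), a log2 fold change of -0.55 (SE 0.07, edgeR adjusted p = 1.51e-05).

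Myl12a stood at 226 to 269 CPM (median 245) in CDKO-labelled embryos, against 242, 225, 234 and 229 CPM in WT. The groups overlapped. The means were 244 ± 13.7 CPM (SD, n = 8) and, in WT, 233 ± 7.34 CPM (SD, n = 4), a log2 fold change of 0.07 (SE 0.05, edgeR adjusted p = 0.232). Myl12a was the most abundant of the 8 genes per length, at 72.7 ± 4.08 CPM per kb in CDKO-labelled embryos (SD, n = 8) and 69.2 ± 2.19 CPM per kb in WT (SD, n = 4).

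Reads of the pair are hard to keep apart, since transcripts of Myl12a and Myl12b share a stretch of 648 bases at 96.9% identity in GENCODE M21, and the sources do not say how multiply mapping reads were counted. Transcripts of the pair also match further copies elsewhere, 1 for Myl12a and 2 for Myl12b, and a stretch of 208 bases of Myl12a transcripts is shared with Myom1, whose annotation overlaps it. Summed over both genes, the level was 308 ± 19.0 CPM (SD, n = 8) in CDKO-labelled embryos and 327 ± 6.91 CPM (SD, n = 4) in WT, a log2 fold change of -0.08 (SE 0.05, edgeR adjusted p = 0.167). Within that sum the share of Myl12b was 18.5% to 23.2% in CDKO-labelled embryos and 27.9% to 30.1% in WT, with no overlap between the groups. The sum was computed after the values of each gene had been seen.

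**Figure D2:**
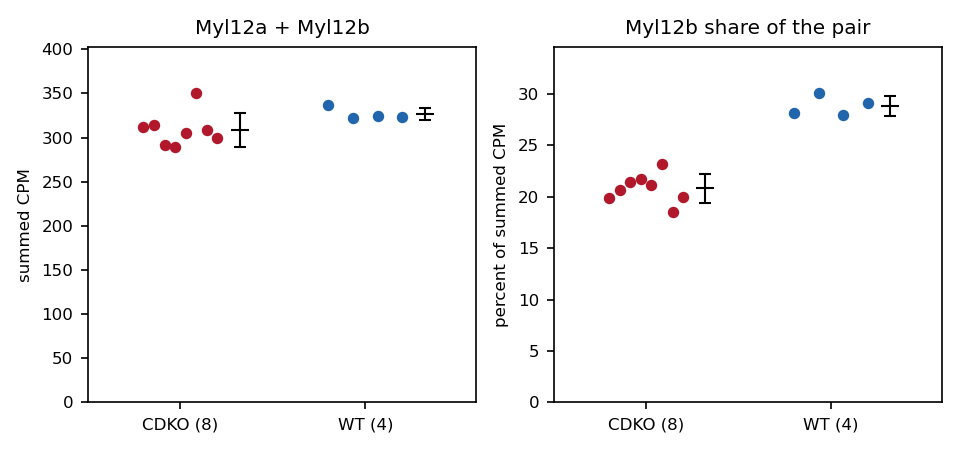
Left, summed CPM of Myl12a and Myl12b in each embryo; right, the percent of that sum counted for Myl12b. Bars beside the points are the mean and SD of 8 CDKO-labelled and 4 WT embryos. The sums overlap, at 288 to 349.7 CPM in CDKO-labelled embryos and 321 to 337 CPM in WT, while the Myl12b share is 18.5% to 23.2% in CDKO-labelled embryos and 27.9% to 30.1% in WT.

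Other genes of non-muscle myosin II moved mostly upward where they moved. Of 14 tested, 6 rose and 2 fell, while 6 missed the threshold, with a median log2 fold change of 0.09. Among all genes tested, 26.6% rose and 24.9% fell. The essential light chain gene Myl6 rose to 132 ± 12.1 CPM in CDKO-labelled embryos (SD, n = 8), against 92.1 ± 4.46 CPM in WT (SD, n = 4). Myl9, the third regulatory light chain gene of this kind and best known from smooth muscle, rose by 0.68 (SE 0.13). By gene order Myl9 is the tested gene nearest to Tgif2 on one side. The kinase genes Dapk3 (0.42, SE 0.07) and Cdc42bpb (0.19, SE 0.05) also rose. The falls were 0 after correction for GC content and length, beside 5 rises. Leaving out 1 embryo at a time gave 5 or 6 rises and 1 to 3 falls, with 1 fall without WT embryo 2, 3 or 4 or CDKO-labelled embryo 4 or 5.

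Myom1, which anchors thick filaments at the M-band of the sarcomere, did not pass the test. It stood at 37.6 to 74.0 CPM (median 54.7) in CDKO-labelled embryos, against 54.7, 43.4, 41.5 and 35.0 CPM in WT. The groups overlapped, with 4 of the 8 CDKO-labelled embryos above every WT embryo. It averaged 55.0 ± 10.9 CPM (SD, n = 8) in CDKO-labelled embryos and 43.7 ± 8.22 CPM (SD, n = 4) in WT, a log2 fold change of 0.34 (SE 0.16, edgeR adjusted p = 0.0892). It passed without WT embryo 1, the highest of the WT embryos (0.46, adjusted p = 0.0333), and without CDKO-labelled embryo 6, the lowest of its group (0.40, adjusted p = 0.0214).

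Most genes of the cardiac sarcomere rose. Of 22 tested, 19 rose and 0 fell, while 3 missed the threshold, and the median log2 fold change was 0.73. Over all genes tested, 26.6% rose and 24.9% fell. The troponin gene Tnni1 rose to 183 ± 36.6 CPM in CDKO-labelled embryos (SD, n = 8), against 62.6 ± 5.36 CPM in WT (SD, n = 4). Myl4, an atrial and embryonic light chain gene, rose by 0.88 (SE 0.14), the Z-disc gene Ldb3 by 0.83 (SE 0.12) and Obsl1, whose protein binds myomesin, by 0.68 (SE 0.05). No gene of this list was at 0, and its summed level was 3819 to 6104 CPM in CDKO-labelled embryos and 2598 to 3174 CPM in WT. The part of these genes in the difference of Myom1 between the groups was not tested, and their relation within the CDKO-labelled embryos is given below.

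Emilin2, a matrix glycoprotein related to those that coat elastic fibres, rose. It stood at 61.4 to 106 CPM (median 84.7) in CDKO-labelled embryos, against 69.0, 72.7, 67.6 and 67.8 CPM in WT. In 7 of 8 CDKO-labelled embryos the level was above every WT embryo, and CDKO-labelled embryo 6 lay below every WT embryo. It averaged 85.1 ± 12.7 CPM (SD, n = 8) in CDKO-labelled embryos and 69.3 ± 2.39 CPM (SD, n = 4) in WT, a log2 fold change of 0.30 (SE 0.10, edgeR adjusted p = 0.0243). This call was lost without WT embryo 1, 3 or 4 (adjusted p = 0.0553, 0.0629 and 0.061) and after correction for GC content and length, where the log2 fold change was 0.18 (SE 0.10, adjusted p = 0.155).

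Of 16 genes of elastic microfibrils and their relatives tested, 10 rose and 2 fell, while 4 missed the threshold. The median log2 fold change was 0.49, and over all genes tested 26.6% rose and 24.9% fell. The fibrillin gene Fbn1 rose to 179 ± 17.4 CPM in CDKO-labelled embryos (SD, n = 8), against 70.5 ± 8.63 CPM in WT (SD, n = 4). Emilin1, of the same family, rose by 0.87 (SE 0.07), the endothelial matrix gene Mmrn2 by 1.23 (SE 0.13) and Efemp2, needed for elastic fibre assembly, by 0.69 (SE 0.11). The relatives did not all rise, since Emilin3 fell (-0.45, SE 0.12, edgeR adjusted p = 0.00477) and Mmrn1 did not pass (0.18, SE 0.40). Emilin3 and Mmrn1 were named after their values were seen. The summed level of the list was 1128 to 1267 CPM in CDKO-labelled embryos and 849 to 1007 CPM in WT. Its part in the difference of Emilin2 between the groups was not tested, and the relation within the CDKO-labelled embryos is given below.

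Lpin2 had the largest fall of the 8 genes. Lipins turn phosphatidate into diacylglycerol, a step in the synthesis of triglycerides and membrane phospholipids. Lpin2 stood at 24.7 to 35.7 CPM (median 30.0) in CDKO-labelled embryos, against 47.4, 50.6, 50.4 and 47.8 CPM in WT. All 8 CDKO-labelled embryos lay below every WT embryo. The means were 30.3 ± 3.6 CPM (SD, n = 8) and, in WT, 49.0 ± 1.65 CPM (SD, n = 4), 1.62-fold lower in CDKO-labelled embryos, with a log2 fold change of -0.69 (SE 0.08, edgeR adjusted p = 5.61e-06).

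Its relative Lpin1 went the other way, at 15.5 ± 2.24 CPM in CDKO-labelled embryos (SD, n = 8) and 7.28 ± 0.748 CPM in WT (SD, n = 4), a log2 fold change of 1.09 (SE 0.12, edgeR adjusted p = 3.4e-06). Of 15 genes of glycerolipid synthesis tested, Lpin1 included, 2 rose, 1 fell and 12 did not pass, where 51.5% of all genes changed. The others of the list that changed were the acyltransferase genes Agpat4 (0.34, SE 0.07) and Agpat3 (-0.24, SE 0.09). The phosphatase gene Ppap2b did not pass (0.16, SE 0.08). After correction for GC content and length 3 rose and 3 fell, and 0 fell without WT embryo 2 or 4 or without CDKO-labelled embryo 2, 3, 5 or 8.

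Smchd1 fell. It stood at 151 to 192 CPM (median 166) in CDKO-labelled embryos, against 224, 217, 219 and 212 CPM in WT, and the groups did not overlap. The means were 170.2 ± 14.9 CPM (SD, n = 8) and, in WT, 218 ± 4.75 CPM (SD, n = 4), a log2 fold change of -0.36 (SE 0.06, edgeR adjusted p = 0.000184). After correction for GC content and length it was -0.22 (adjusted p = 0.000422). Smchd1 is a distant member of the SMC proteins, which fold and hold chromosomes, and acts on silent chromatin together with DNA methylation. Of 10 SMC and DNA methylation genes tested, 3 rose and 5 fell, while 2 missed the threshold, with a median of -0.11. Across all genes tested, 26.6% rose and 24.9% fell. Uhrf1, which recruits the maintenance DNA methyltransferase, fell to 297 ± 13.1 CPM in CDKO-labelled embryos (SD, n = 8), against 419 ± 16.6 CPM in WT (SD, n = 4). The SMC genes Smc5 (-0.49, SE 0.06) and Smc2 (-0.28, SE 0.06) fell and the DNA methyltransferase gene Dnmt3a rose (0.23, SE 0.05). The SMC genes went in both directions. Smc6 fell (-0.26, SE 0.06), and Smc1a (0.18, SE 0.04) and Smc3 (0.10, SE 0.04) rose. Smc4 did not pass (0.05, SE 0.05). Smc6, Smc1a, Smc3 and Smc4 were named after their values were seen.

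Ndc80, the outermost of the genes, rose. It stood at 75.4 to 89.2 CPM (median 82.1) in CDKO-labelled embryos, against 69.5, 67.2, 73.0 and 68.9 CPM in WT. All 8 CDKO-labelled embryos lay above every WT embryo. It averaged 81.7 ± 4.68 CPM (SD, n = 8) in CDKO-labelled embryos and 69.6 ± 2.45 CPM (SD, n = 4) in WT, a log2 fold change of 0.23 (SE 0.05, edgeR adjusted p = 0.00152). Transcripts of 2 genes elsewhere share stretches with those of Ndc80. Of 19 kinetochore genes tested, 6 rose and 6 fell, while 7 missed the threshold, with a median of -0.08. Over all genes, 26.6% rose and 24.9% fell. Nuf2, the direct partner of Ndc80, rose by 0.21 (SE 0.04) to 103 ± 4.36 CPM in CDKO-labelled embryos (SD, n = 8), against 88.8 ± 3.43 CPM in WT (SD, n = 4). Cenpt, which links Ndc80 to centromeric chromatin, rose by 0.47 (SE 0.05). The spindle checkpoint genes Bub1 (-0.43, SE 0.04) and Mad2l1 (-0.23, SE 0.05) fell.

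**Figure D3:**
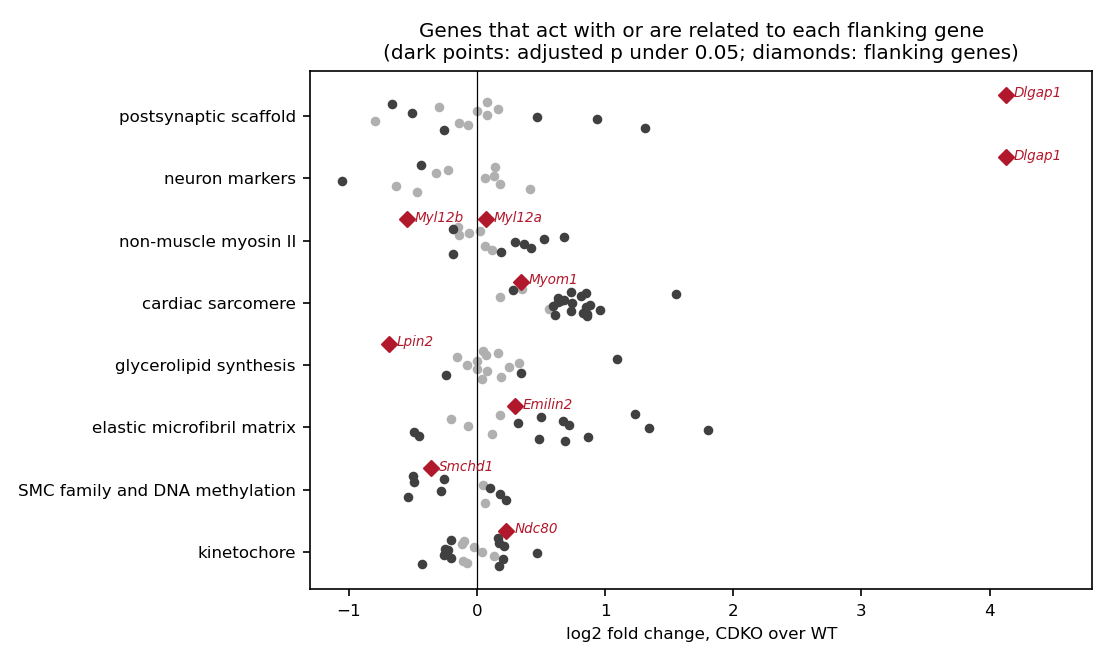
Log2 fold change of CDKO-labelled over WT embryos (x axis) for the tested genes of the 8 lists, 1 row per list; dark points passed an adjusted p of 0.05 and diamonds are the flanking genes. Dlgap1, chosen partly for its strong change, is at 4.13, and Lpin2, at -0.69, stands opposite its relative Lpin1, at 1.09.

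Over the 8 lists, 70 of 121 genes tested changed, 49 higher and 21 lower, beside 51.5% of all genes. These lists were drawn up by role with earlier results of these embryos known. Where 22.4% of all genes passed against a change of at least 1.2-fold, 38 of the 121 list genes did. Of these, 15 sarcomere genes rose and 0 fell, 8 microfibril genes rose and 1 fell, 3 myosin genes rose and 0 fell, and 3 postsynaptic genes rose and 2 fell. In the other lists 1 glycerolipid gene rose, 1 neuron marker and 2 SMC or DNA methylation genes fell, and 1 kinetochore gene rose and 1 fell.

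Farther out along chromosome 17 the differences were similar in size to those of all genes. Among the 20 nearest tested genes on each side of Tgif1, 32 were not members; of these 12 rose, 7 fell and 13 did not pass, or 59.4% changed beside 51.5% of all genes. The larger number of rises was not stable to leaving out an embryo. Without WT embryo 1 or 4 or CDKO-labelled embryo 8, 7 rose and 7 fell, and without WT embryo 2, 7 rose and 5 fell. Fewer of all genes changed without WT embryo 1, 2 or 4 (44.6%, 44.7% and 45.8%), and 51.3% did without CDKO-labelled embryo 8. The reason for these shifts was not tested. The log2 fold changes of the 32 genes lay between -0.55 and 0.78, with a median size of 0.20 without sign, against 0.25 over all genes. Beyond Dlgap1 the nearest tested gene was C030034I22Rik, at -0.12 (SE 0.18), which did not pass, and then Zfp161, a zinc finger gene, at -0.24 (SE 0.09, edgeR adjusted p = 0.0385). Beyond Ndc80 the nearest was Trmt61b, at -0.14 (SE 0.11), which did not pass. These 3 were named after their values were seen. The log2 fold changes of the 72 non-member genes within 40 places of Tgif1 ran from -1.74 to 1.05. Dlgap1 was chosen partly for its strong change, so its distance from these genes is not read as a result.

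The neighbour with the lowest p was Twsg1, which encodes a secreted BMP modulator. It fell to 93.0 ± 5.93 CPM in CDKO-labelled embryos (SD, n = 8), against 137 ± 1.73 CPM in WT (SD, n = 4), a log2 fold change of -0.55 (SE 0.05). The helicase gene Ddx11 (-0.49, SE 0.06), the ribosome biogenesis gene Wdr43 (-0.44, SE 0.05) and the phosphatase subunit gene Ppp4r1 (-0.21, SE 0.04) fell too. Lbh, a transcriptional cofactor gene, rose to 85.1 ± 10.7 CPM in CDKO-labelled embryos (SD, n = 8), against 49.5 ± 4.02 CPM in WT (SD, n = 4), and the receptor phosphatase gene Ptprm rose by 0.43 (SE 0.08). Without WT embryo 2 the count of changed neighbours was 12 of the 32, beside 44.7% of all genes. Without WT embryo 1, 3 or 4 it was 14, beside 44.6%, 45.6% and 45.8% of all genes, and without 1 CDKO-labelled embryo it was 14 to 19.

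Around Tgif2 on chromosome 2, read in the same way, 40 neighbours held 12 genes that rose, 11 that fell and 17 that did not pass, 57.5% changed beside 51.5% of all genes. A paralog of Dlgap1, Dlgap4, lies 2 tested genes from Tgif2, with Myl9 (log2 fold change 0.68, SE 0.13) between them. Dlgap4 stood at 149.8 ± 7.54 CPM in CDKO-labelled embryos (SD, n = 8) and 108 ± 3.67 CPM in WT (SD, n = 4). Ndrg3 (log2 fold change 0.57, SE 0.05), Ctnnbl1 (0.51, SE 0.05), Tgm2 (0.70, SE 0.08) and Edem2 (0.48, SE 0.06) also rose and Tti1 fell (-0.64, SE 0.07). The log2 fold changes of these 40 genes lay between -0.64 and 0.83.

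**Figure D4:**
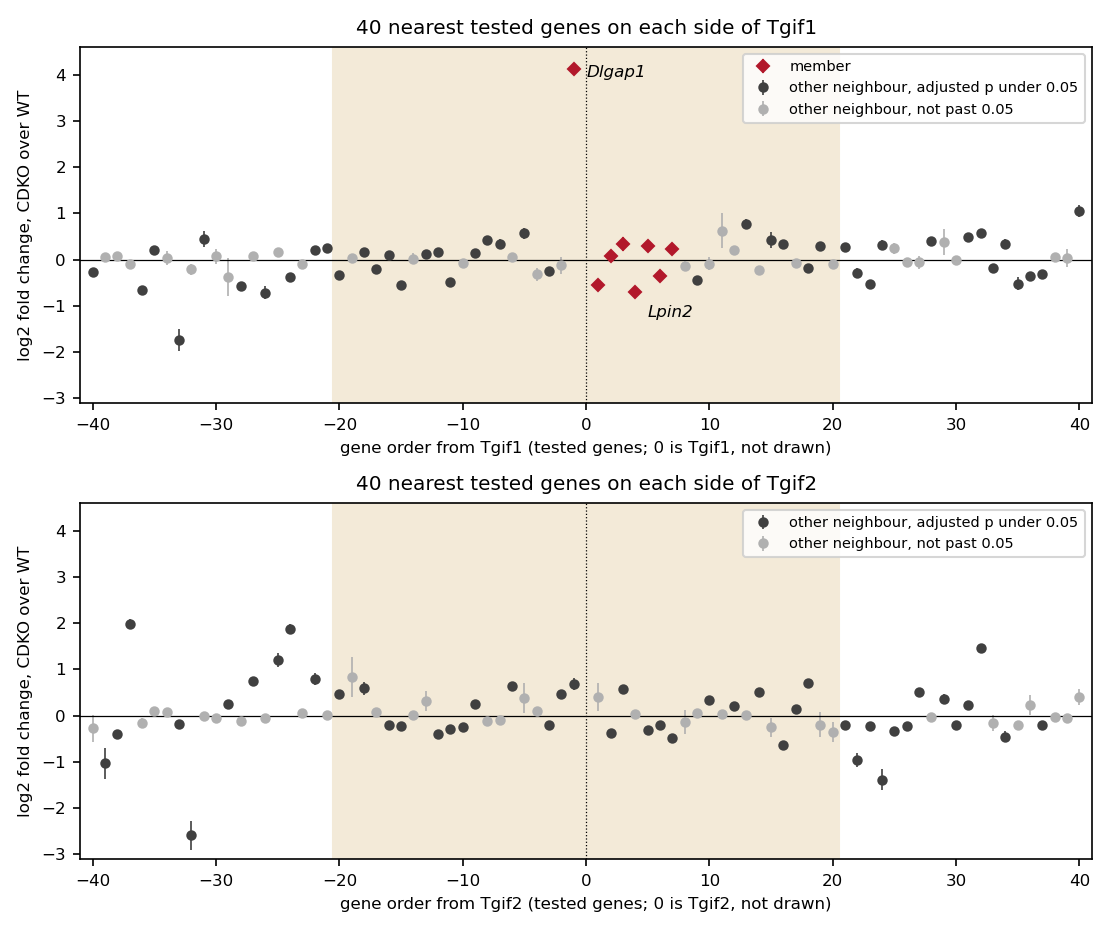
Log2 fold change of CDKO-labelled over WT embryos with its SE (y axis) for the 40 nearest tested genes on each side of Tgif1 (top) and Tgif2 (bottom), by gene order (x axis); the shaded band spans the 20 nearest. Dlgap1, chosen partly for its strong change, is at 4.13, and the other 7 members lie between -0.69 and 0.34.

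Variation among the 8 CDKO-labelled embryos played no part in choosing the genes and was tested for the 36 pairs among the 8 genes and Tgif1. Pearson r of log2 CPM was positive in 19 pairs and negative in 17. After adjustment over the 36 pairs 1 pair passed, Myl12b and Lpin2, with r = -0.87 (exact two-sided permutation test, p = 0.000248, adjusted p = 0.00893, n = 8). Spearman's rho was -0.90 (exact permutation p = 0.00456, adjusted p = 0.0821). CDKO-labelled embryo 6 was highest in Myl12b and lowest in Lpin2, and embryo 7 was lowest in Myl12b and highest in Lpin2. Leaving out these 2 embryos, the farthest from the median of Myl12b, r was -0.85 (exact permutation p = 0.0333 over 6 embryos). No pair passed after adjustment without embryo 6, 7 or 8. Between the group means the same genes went together, both lower in CDKO-labelled embryos than in WT.

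Dlgap1 and the residual Tgif1 counts had no relation that passed the test within the CDKO-labelled embryos (r = 0.17, rho = 0.24, exact permutation p = 0.675 and 0.582, adjusted p = 0.874 and 0.882, and r = -0.06 without the 2 farthest embryos). With 8 embryos and a narrow range of both genes, a weak relation could not have been detected. Dlgap1 and Myom1 had r = 0.73 and rho = 0.90 (exact permutation p = 0.0327 and 0.00456, adjusted p = 0.392 and 0.0821), and r = 0.44 without the 2 farthest embryos. Lpin2 and Smchd1 had r = 0.72 and rho = 0.79 (exact permutation p = 0.0459 and 0.0279, adjusted p = 0.413 and 0.331), and r = 0.85 without the 2 farthest embryos. Neither relation passed the adjustment.

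**Figure D5:**
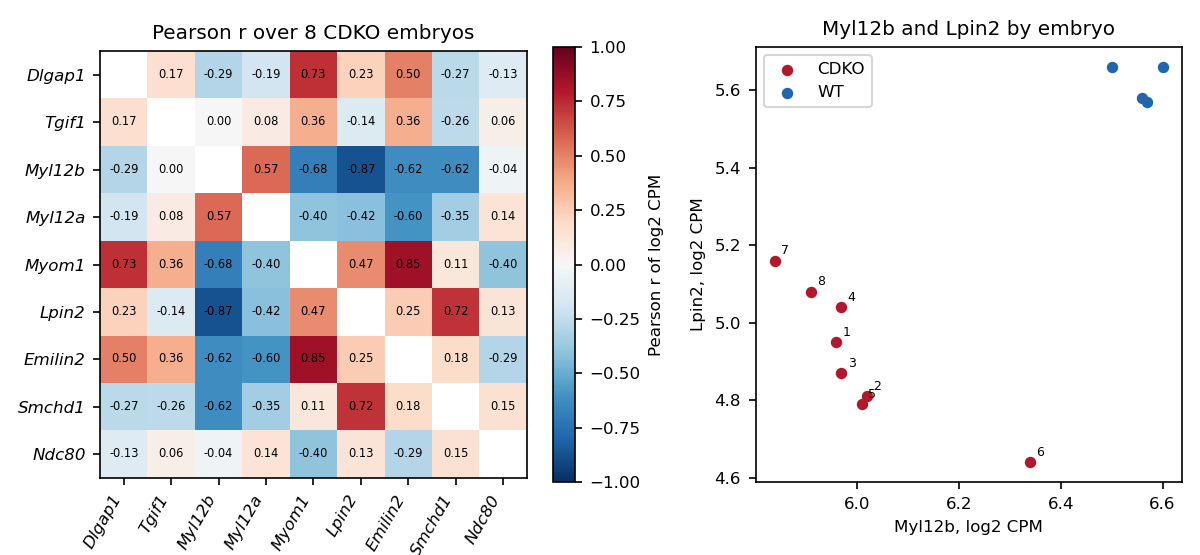
Left, Pearson r of log2 CPM over the 8 CDKO-labelled embryos for each pair of the 8 flanking genes and Tgif1. Right, log2 CPM of Lpin2 (y axis) against Myl12b (x axis) in each embryo, with CDKO-labelled embryos numbered; r is -0.87 among them, and the 4 WT embryos lie apart at the upper right.

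Each gene was also set against the summed level of its list within the 8 CDKO-labelled embryos, a comparison of 9 relations added after the data were seen. In a sum of CPM the most abundant genes weigh most. By mean in CDKO-labelled embryos these were Fbn2 (292 CPM) and Fbln1 (279 CPM) among microfibril genes. Among sarcomere genes they were Actc1 (1027 CPM) and Tpm1 (719 CPM). Emilin2 varied with the microfibril genes (r = 0.86, rho = 0.74, exact permutation p = 0.00389 and 0.0458, adjusted p = 0.035 and 0.137). Myom1 varied with the cardiac sarcomere genes (r = 0.85, rho = 0.74, exact permutation p = 0.0107 and 0.0458, adjusted p = 0.0483 and 0.137). Without CDKO-labelled embryos 2 and 6, the farthest in both genes, r over the 6 left was 0.57 for Emilin2 (exact permutation p = 0.24) and 0.68 for Myom1 (exact permutation p = 0.13). Dlgap1 and the neuron markers had r = 0.78 and rho = 0.81 (exact permutation p = 0.0295 and 0.0218, adjusted p = 0.0886 and 0.137), and r = 0.58 without the 2 farthest embryos, which did not pass. The other 6 relations had r between -0.54 and 0.64, with adjusted p of 0.181 or more by exact permutation.

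Genes most like each member were sought by Pearson r of log2 CPM over the 8 CDKO-labelled embryos among 14411 other genes, as a description with no test. The highest of 14411 values of r over 8 embryos can be high among unrelated genes. The number expected by chance was not computed, so no relation is read from the names or counts below. For Dlgap1 the 5 highest were Eif1b, a translation initiation factor gene (r = 0.94), Ly6h (0.93), Cyp2j6 (0.92), Rgs17 (0.91) and C85492 (0.91), with rho between 0.71 and 0.95. None lay on chromosome 17, and between the groups they went in both directions, from -0.63 for C85492 to 1.07 for Ly6h on the log2 scale. The number of genes with r above 0.9 was 11 for Dlgap1, and among the other 7 genes it ran from 7 for Ndc80 to 171 for Lpin2. The single most similar genes were Lsp1 for Myl12b (0.98), Casz1, a heart transcription factor gene, for Myom1 (0.98), Lrp12 for Lpin2 (0.98), Btbd3 for Emilin2 (0.97), Ttc14 for Smchd1 (0.98) and Cd1d1 for Ndc80 (0.96).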

How the data were processed

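RNA-seq counts of 12 single whole embryos were used, 8 labelled CDKO and 4 WT. The table deposited by the authors holds raw counts, unnormalized, by gene symbol. The tools named are STAR, featureCounts, FastQC and DESeq2, and the build is mm9, per the submitters' processing notes. The sources name no annotation or strand setting. The lowest chi-square per degree of freedom between libraries of a group was 3.89, so no library of a group was a resequencing of another. Separate libraries made from the same embryo would not be excluded by this value.

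Counts were tested over all 14412 genes kept by filterByExpr with edgeR 4.0.16 in R 4.3.3 (TMM, robust quasi-likelihood F test, no covariate, Benjamini-Hochberg, threshold 0.05). The SE is the log2 fold change divided by the square root of F. Log2 CPM used a prior count of 2. The labels pair no embryos, and p-values measure spread between embryos. The members and gene lists were chosen with earlier results of these data known. Genes named are the members, Tgif1 and Tgif2, up to 6 neighbours with the lowest p at each locus, up to 4 genes with the lowest p per list, and the genes most like each member; exceptions are stated, and the gene most like Myl12a is not reported here. Gene order came from the GRCm38.p6 RefSeq table (20683 symbols matched directly, 2311 through a synonym, 290 not matched), and exon lengths from GENCODE M21. Near-identical copies were sought with BLAST 2.17.0 (minimum identity 95% over 200 bases). Alternatives were DESeq2 1.42.0, scaling by RLE or the upper quartile, voom with quality weights (limma 3.58.1), other filters and dispersions, a test against 1.2-fold, left-out embryos, and, added after the data were seen, removal of trends on GC content and length and the summing of Myl12a with Myl12b.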

Additional observations from a re-analysis of the deposited data

Results flagged for a closer look

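Among 36 groups of embryos, taken over the 8 genes, Tgif1, Tgif2 and the summed lists in each genotype, 2 held an embryo far from the rest, and chance flags about 1 group in 20. CDKO-labelled embryo 6 stood at 81.0 CPM in Myl12b, with the other CDKO-labelled embryos at 57.1 to 64.7 CPM. CDKO-labelled embryo 2 stood at 6104 CPM in the summed cardiac sarcomere genes, with the other CDKO-labelled embryos at 3819 to 4753 CPM.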

How the results depend on the processing

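No paired analysis was possible because the labels name no pairs or litters. Embryo numbers in the text follow the order of the samples within each group. With all embryos 7423 genes changed, 5 of the 7 members other than Dlgap1, 19 other neighbours of Tgif1, 23 neighbours of Tgif2 and 70 list genes. Against a change of 1.2-fold these counts were 3223, 2, 6, 12 and 38, with Lpin2 and Myl12b the members that passed. Leaving out each embryo in turn gave 6485 to 7524 genes, 4 to 6 members, 12 to 19 neighbours of Tgif1, 22 to 24 neighbours of Tgif2 and 61 to 73 list genes. With 10 genes on each side, 6 of 12 other neighbours of Tgif1 and 12 of 20 neighbours of Tgif2 changed. With 40 on each side, 42 of 72 and 46 of 80 did, beside 7423 of all 14412 genes. The 8 members are left out around Tgif1, so its sets are smaller. The pairs of genes that passed within CDKO-labelled embryos numbered 1, with 0 by Spearman's rho, 0 with the 2 farthest embryos left out (where 6 embryos do not let a single pair of 36 pass, so this says nothing of stability), and 0 to 1 leaving out each embryo. No log2 fold change of a member reversed its sign. Myom1 also passed with voom and quality weights (adjusted p = 0.00523) and without CDKO-labelled embryo 2 and WT embryo 1 together (0.0304), where Emilin2 did not (0.0647). Against 1.2-fold Smchd1 and Ndc80 were not called (adjusted p = 0.0866 and 0.825). The cause of these shifts was not tested. Counts of 11 to 21 reads limit the WT level of Dlgap1.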
